A study of Mus musculus with 21 samples.

Results

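Transcription factors that set and hold the identity of nephron cells were examined in the kidneys of mice with adenine-induced kidney disease. The 8 genes Hnf4a, Pax2, Pax8, Maf, Sox4, Tfap2b, Esrrb and Esrrg were taken by symbol from the study's table of gene names, and all 8 were found among the 20634 genes that both count tables held. RNA-seq was performed on kidneys of female apoE knockout mice (C57BL/6J background), 18 weeks old, which had been fed their diets for 14 weeks from 4 weeks of age. The Con group (n = 5) was fed chow, the Ade group (n = 6) chow with adenine, and the Ade + IMC group (n = 6) chow with adenine and IMC (iodomethylcholine), which blocks the making of trimethylamine by gut bacteria. All groups carried the apoE knockout, so no mouse was wild type, and the 4 Con + IMC mice of the labels were not analysed here.

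HNF4A is a nuclear receptor of the proximal tubule, the segment that reclaims most of the filtered solutes, and drives the genes of its transporters. PAX2 and PAX8 are paired-box factors needed to form the nephron, and TFAP2B acts in its distal part. ERRβ and ERRγ, encoded by Esrrb and Esrrg, are orphan nuclear receptors that promote mitochondrial gene expression, and SOX4 is a developmental factor that is active when epithelia are remodelled.

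The 50-base single-end reads of this study can be assigned to 1 member of a gene family only if the members' transcripts differ within a read. The coding sequences of the paired members were therefore compared, since the results below set them against each other. The longest identical stretch, in capitals, was 17 bases between Esrrb (transcript Esrrb-203, coding bases 85 to 137 shown) and Esrrg (Esrrg-201, bases 91 to 143), and 27 bases between Pax2 (Pax2-201, bases 187 to 249) and Pax8 (Pax8-201, bases 169 to 231), all from the GENCODE annotation of GRCm38.
Esrrb: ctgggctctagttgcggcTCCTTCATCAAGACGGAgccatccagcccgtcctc
Esrrg: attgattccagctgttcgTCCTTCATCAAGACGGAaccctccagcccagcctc
Pax2: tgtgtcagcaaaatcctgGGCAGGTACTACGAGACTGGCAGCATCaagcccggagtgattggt
Pax8: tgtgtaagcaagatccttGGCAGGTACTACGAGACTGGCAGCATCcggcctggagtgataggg
Both stretches were shorter than a read, and the transcripts of Hnf4a, Pax2, Esrrb and Esrrg shared 0 words of 50 bases with any other gene. Sox4, a gene of 1 exon on chromosome 13 (13:28948919-28953713, minus strand), shared 2616 exonic bases with Gm26735 on the opposite strand, or 54.1% of its 50-base words. Reads of such pairs cannot be told apart without strand, the use of which is not stated, so the Sox4 count is uncertain to that extent. For Maf and Pax8 the shared words were 4.64% and 4.43%.

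The total count per mouse was 7716126 to 11680809 in the Con group, 5444833 to 7673215 in the Ade group and 5728589 to 8305968 in the Ade + IMC group. Levels are given as CPM, counts of a gene scaled to a library of fixed size, after TMM scaling over the 17 mice. The TMM factors were 0.830 to 0.906 in the Con mice and 0.994 to 1.147 in the adenine-fed mice. Small folds against the Con group, such as those of Tfap2b and Pax2, therefore depend on such scaling. The smallest count of any of the 8 genes in any mouse was 75, for Esrrb in an Ade mouse, so none was near the limit of detection. Havcr1, the kidney injury molecule KIM-1, had 0.504 ± 0.284 CPM in the Con group (SD here and below) and 153 ± 83.0 CPM in the Ade group, with no overlap, and 86.6 ± 72.0 CPM in the Ade + IMC group. The summed level of 8 macrophage markers was 186 to 229 CPM in Con mice, 913 to 1435 CPM in Ade mice and 833 to 1352 CPM with IMC. Sums of 14 proximal tubule genes were 14329 to 20254, 2355 to 8875 and 3812 to 7635 CPM in the same order. As RNA came from whole tissue, fewer cells of a type and less RNA per cell cannot be told apart in any result below, and the part of infiltrating cells in these results was not tested.

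On the scale of CPM per kilobase of exons, which allows levels of different genes to be set side by side, Hnf4a was the most abundant of the 8 genes in every group. Its level in the Con group was 197 ± 20.6, against 33.8 ± 6.89 for Maf, the next in order. Tfap2b (22.8 ± 2.99), Esrrg (19.8 ± 4.99), Pax8 (18.8 ± 1.45) and Pax2 (17.9 ± 3.22) followed in the Con group, and each overlapped its neighbour, as did Maf and Tfap2b. Esrrb (10.2 ± 2.16) and Sox4 (4.32 ± 0.468) were lowest, and neither overlapped the gene above it. The Sox4 level is too low on this scale if reads in the 2616 exonic bases shared with Gm26735 went uncounted. Its place in the order of each group is therefore uncertain. In the Ade group the order below Hnf4a (59.7 ± 21.1) was Pax8, Maf, Tfap2b, Pax2, Sox4, Esrrg and Esrrb. Sox4, at 16.7 ± 4.77, had moved past both estrogen-related receptors, and only Hnf4a and Esrrb did not overlap their neighbours.

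Adenine feeding was compared with chow to ask how the kidney's gene expression differs in this disease model. Of the 8 genes, 5 were lower in the Ade group than in the Con group (Hnf4a, Esrrb, Esrrg, Maf and Tfap2b) and 2 were higher (Sox4 and Pax8), while Pax2 did not pass the test. Genes were called with edgeR's quasi-likelihood test where the p-value, adjusted by the Benjamini-Hochberg method, was below 0.1, and of 14612 genes tested 32.2% were called lower and 35.1% higher. With so many genes called, these counts are read as a description of each gene and not as particular to the 8. The CPM ranges of the Con and Ade mice did not overlap for 4 of the 8 genes (Hnf4a, Esrrb, Esrrg and Sox4), and for 43.0% of all genes tested.

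**Figure D1:**
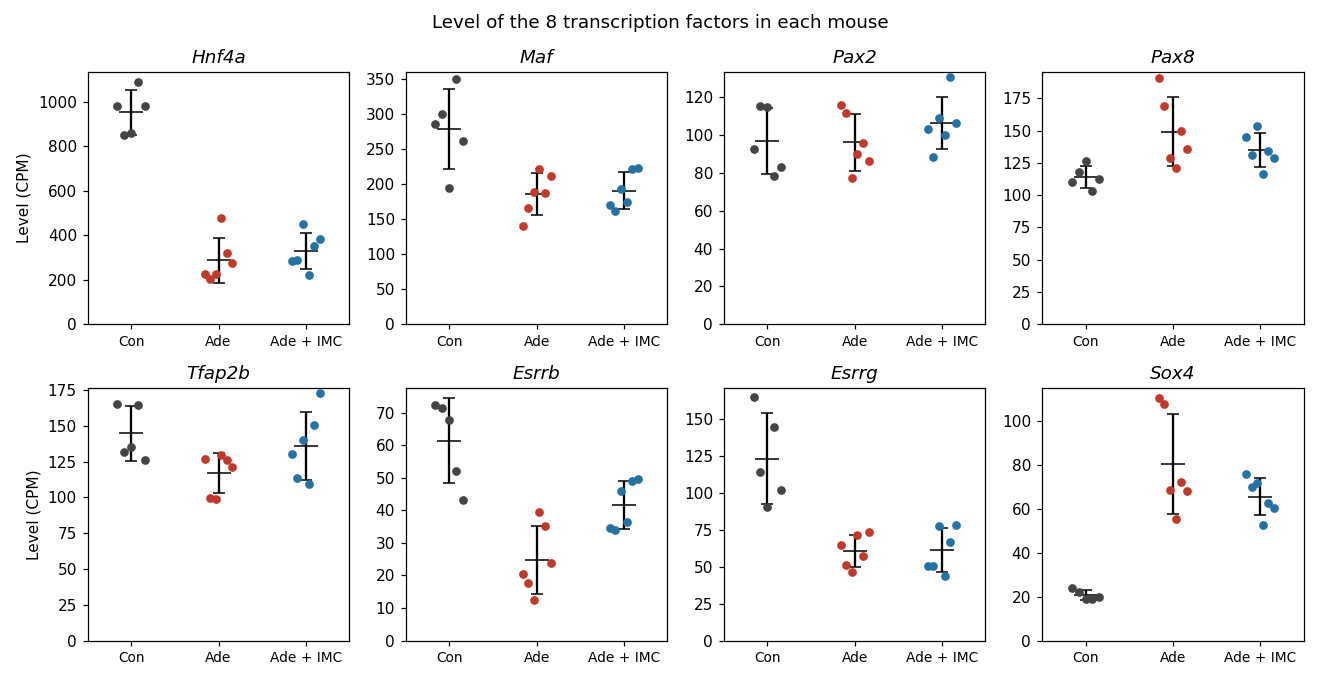
Level of each of the 8 transcription factors (CPM, linear axis from 0) in each mouse of the Con (n = 5), Ade (n = 6) and Ade + IMC (n = 6) groups. Points are mice and bars are mean ± SD, and Hnf4a and Esrrg lie lower, and Sox4 higher, in all mice of both adenine-fed groups than in all Con mice.

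Hnf4a (2:163506808-163572910, plus strand) had the largest fall. Its levels in the 5 Con mice were 980, 852, 858, 1090 and 983 CPM. The 6 Ade mice ranged from 202 to 478 CPM with a median of 250.6, so the highest Ade mouse lay well below the lowest Con mouse. Hnf4a was 3.26-fold lower in the Ade group (log2 fold change -1.70 ± 0.20 SE, adjusted p = 7.48e-06, edgeR). The exact permutation test over mice gave p = 0.00216, the smallest that 5 against 6 mice allow. Of the list of proximal tubule genes, all 14 were called lower, with a median log2 fold change of -1.70 against 0.02 for all genes. Among them were Lrp2, the endocytic receptor megalin (-2.65 ± 0.38, adjusted p = 5.22e-05), and Apom, which encodes an apolipoprotein (-2.54 ± 0.37, adjusted p = 5.71e-05).

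Hnf4g, the closest relative of Hnf4a, was also lower in the Ade group (-1.10 ± 0.21, adjusted p = 0.000467). The ratio of Hnf4a to Hnf4g counts, which does not depend on how libraries are scaled, was 65.7 ± 20.3 in the Con mice and 40.1 ± 15.3 in the Ade mice. The log2 ratios differed by -0.74 between the groups (p = 0.0325, two-sided exact permutation test), and the ranges overlapped.

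Maf (8:115682942-115707794, minus strand) encodes c-MAF, a leucine-zipper factor of the proximal tubule that is also made by macrophages. The Con mice had 287, 300, 195, 350 and 261 CPM of Maf. The Ade mice had 141 to 222 CPM (median 188), and 4 of the 6 lay below all Con mice. Maf was 1.48-fold lower in the Ade group (-0.56 ± 0.15, adjusted p = 0.00444) while all 8 macrophage markers were called higher, with a median log2 fold change of 3.23. Its relative Maff, a small MAF protein induced by stress, was higher (2.28 ± 0.31, adjusted p = 3.35e-05).

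The paired-box genes did not move alike. Pax2 (19:44756045-44837871, plus strand) had 92.7, 116, 115, 78.6 and 83.1 CPM in the Con mice. The Ade mice had 77.5 to 116 CPM (median 92.9), nearly the same span, and the log2 fold change was 0.01 ± 0.13 (adjusted p = 0.941). Pax8 (2:24420560-24475599, minus strand) had 110, 118, 127, 103 and 112 CPM in the Con mice and 121 to 191 CPM (median 142) in the Ade mice, 5 of which lay above all Con mice. Pax8 was 1.33-fold higher in the Ade group (0.41 ± 0.12, adjusted p = 0.00766), and the ratio of Pax2 to Pax8 counts was lower (0.847 ± 0.1004 in Con mice, 0.649 ± 0.0522 in Ade mice, p = 0.00649, exact permutation test, not adjusted for the 8 ratios computed). Hnf4a had 8.45 ± 1.499 counts for each Pax8 count in the Con mice and 2.05 ± 1.02 in the Ade mice, with no overlap.

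Tfap2b (1:19208914-19238576, plus strand) had the smallest change of those that passed the test. The Con mice had 166, 131, 135, 165 and 126 CPM. The Ade mice had 98.6 to 129 CPM (median 124), which overlapped 1 Con mouse, while the other 4 lay above all Ade mice. Tfap2b was 1.22-fold lower (-0.28 ± 0.10, adjusted p = 0.0278). So small a fall depends on the scaling, as the TMM factors were lower in all Con mice than in all Ade mice. The log2 differences of Tfap2b were -0.39, -0.60 and -0.01 in mice with first digits 2, 3 and 4 of their numbers. What the digit stands for is not stated, and digit 3 has a lone Ade mouse and digit 4 a lone Con mouse. Tfap2a, a relative of Tfap2b, did not pass the test (0.09 ± 0.15, adjusted p = 0.610). Of 10 genes of the distal convoluted tubule 8 were called lower and 0 higher (median log2 fold change -0.55), led by Pvalb, the calcium-binding protein parvalbumin (-1.76 ± 0.37, adjusted p = 0.00101), and Klhl3, an adaptor that directs the WNK kinases to degradation (-1.45 ± 0.24, adjusted p = 0.000169). KCTD1 and KCTD15 inhibit AP-2 factors such as TFAP2B, and their genes were higher in the Ade group by 0.51 ± 0.10 (adjusted p = 0.000475) and 1.26 ± 0.13 (adjusted p = 3.20e-06) on the log2 scale.

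Both estrogen-related receptor genes fell. Esrrb (12:86361117-86521628, plus strand) had 72.5, 71.6, 67.7, 52.1 and 43.2 CPM in the Con mice and 12.5 to 39.5 CPM (median 22.2) in Ade mice, with no overlap. It was 2.43-fold lower (-1.28 ± 0.24, adjusted p = 0.000498). The log2 differences of Esrrb were -1.91, -2.22 and -0.43 in mice with first digits 2, 3 and 4 of their numbers. Of these, digit 3 has a lone Ade mouse and digit 4 a lone Con mouse. Esrrg (1:187608791-188214885, plus strand) had 165, 114, 90.1, 145 and 102 CPM in the Con mice and 46.4 to 73.3 CPM (median 60.8) in the Ade mice, and was 2.0-fold lower (-1.0 ± 0.16, adjusted p = 0.000118). The third family member, Esrra, fell less (-0.65 ± 0.11, adjusted p = 0.000190), although that difference in size was not tested. The ratio of Esrrb to Esrrg counts did not pass a test between Con and Ade mice (log2 difference -0.38, p = 0.210, exact permutation test).

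Of 8 partners and inhibitors of the 8 factors, 3 were called lower in the Ade group and 2, Kctd1 and Kctd15, higher. Ppargc1a, which encodes the coactivator PGC-1α, fell by 1.18 ± 0.14 on the log2 scale (adjusted p = 8.83e-06), and Ppargc1b by 0.82 ± 0.10 (adjusted p = 1.29e-05). Nrip1 and Nr0b2, which encode corepressors of nuclear receptors, did not pass the test (-0.09 ± 0.16, adjusted p = 0.640, and -0.24 ± 0.39, adjusted p = 0.613). All 7 genes on a list of known targets of the estrogen-related receptors were called lower (median log2 fold change -0.98). The largest falls were those of Acadm, the medium-chain acyl-CoA dehydrogenase of fatty acid oxidation (-1.81 ± 0.33, adjusted p = 0.000361), and Cycs, cytochrome c (-1.06 ± 0.24, adjusted p = 0.00163). Whether the falls of these targets follow from those of the receptors was not tested. Of 8 genes of the thick ascending limb, 5 were called lower and 1 higher. Slc12a1, the sodium-potassium-chloride cotransporter, fell by 1.06 ± 0.29 (adjusted p = 0.00589), whereas Cldn16, a claudin that passes magnesium, rose by 0.48 ± 0.13 (adjusted p = 0.00749).

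Sox4 was the member with the largest rise. The Con mice had 24.0, 21.9, 18.7, 19.0 and 19.99 CPM. The 6 Ade mice had 55.3 to 110 CPM (median 70.1), so each had more than any Con mouse. Sox4 was 3.93-fold higher (1.97 ± 0.18, adjusted p = 9.97e-07), and the permutation test gave its smallest possible p, 0.00216. Its relative Sox12 had 29.2 ± 3.77 CPM in the Con group and did not pass the test (0.04 ± 0.12, adjusted p = 0.792). Sox11, another close relative, was too low to be tested, with 0 to 4 counts in the Con mice and 6 to 30 in the Ade mice (0 to 0.404 and 0.812 to 3.81 CPM). Of 12 genes of injured tubule 11 were called higher, with a median log2 fold change of 2.61. The largest rises among them were those of Havcr1 (8.22 ± 0.55, adjusted p = 6.78e-08) and Krt20, a keratin (7.25 ± 0.97, adjusted p = 2.83e-05), whose Con levels were near 0, so that these folds rest on few counts.

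Most other transcription factors of tubule segments were also lower. On a list of 28, 18 were called lower and 1 higher (median log2 fold change -0.52). The largest falls were those of Ppara, the fatty acid sensor PPARα (-1.98 ± 0.23, adjusted p = 9.13e-06), and Vdr, the vitamin D receptor (-1.38 ± 0.16, adjusted p = 8.24e-06). Sim2 was the one that rose (0.50 ± 0.22, adjusted p = 0.0649). Of 5 podocyte transcription factors, 0 were called lower and 3 higher, among them Tcf21 (0.70 ± 0.25, adjusted p = 0.0276) and Foxc1 (0.57 ± 0.16, adjusted p = 0.00615), which stromal cells also express. Fibroblast and pericyte markers rose as well, all 6 on the list. Of 8 transcription factors of nephron progenitors 5 were tested, of which Sall1 fell (-0.70 ± 0.10, adjusted p = 5.53e-05), Meox1 fell (-0.46 ± 0.21, adjusted p = 0.0720) and Hoxc9 rose (0.51 ± 0.15, adjusted p = 0.00837).

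**Figure D2:**
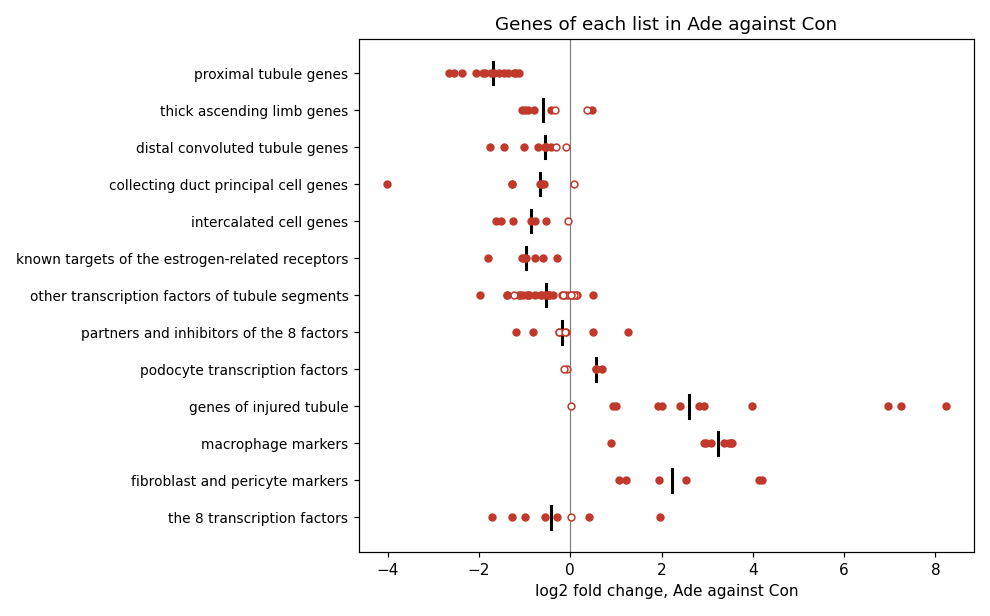
Log2 fold change in the Ade group against the Con group (horizontal axis) of each tested gene of the lists (rows). Filled points passed an adjusted p-value below 0.1 and open points did not, black bars are list medians, and the 8 transcription factors spread from -1.70 to 1.97 while all 14 proximal tubule genes lie below 0.

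IMC was given with adenine to ask whether less trimethylamine changes the kidney in this model. Between the adenine-fed groups with and without IMC, 0 of the 8 genes passed an adjusted p-value below 0.1 with limma on log2(normalized count + 1), where 0.0% of 14696 genes did. At an unadjusted p-value below 0.05 limma gave 1 of the 8, Esrrb, which was higher, as were 3.37% of all genes. Over all genes limma had 988 at that unadjusted limit, and DESeq2 and edgeR on the recovered reads called 37 and 0 genes, neither with any of the 8. With a block for the first digit of the mouse number, limma called 133 genes and edgeR 104, each with 1 of the 8, Esrrb. Leaving out 1 mouse as well moved limma's count to between 0 (without mouse 207, 308, 211 or 412) and 654 (without mouse 407). The CPM ranges of the Ade and Ade + IMC mice overlapped for all 8 genes, and were separate for 0.225% of all genes.

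Esrrb had 12.5 to 39.5 CPM (median 22.2) without IMC and 34.0 to 49.5 CPM (median 41.1) with IMC, where 3 mice lay above all Ade mice. The log2 fold change was 0.81 ± 0.24 (95% interval 0.31 to 1.32, adjusted p = 0.706, limma), or 1.76-fold. The exact permutation test over mice gave p = 0.0195, not adjusted for the 8 genes. Esrrb was higher in the Ade + IMC mice at each first digit of the mouse number (log2 differences of 0.83, 1.68 and 0.59 for digits 2, 3 and 4, the second resting on 1 Ade mouse), and permuting within digits gave the smallest possible p, 0.00556. With the digit as a block the gene was called (0.93 ± 0.17, adjusted p = 0.0602, limma), but in 4 of 12 fits that also left out 1 mouse, and what the digit stands for is not stated.

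Esrrg, by contrast, had 46.4 to 73.3 CPM without IMC and 43.9 to 78.4 CPM with it. Its log2 fold change was -0.01 ± 0.16 (95% interval -0.35 to 0.33, adjusted p = 0.994, limma). The difference between both receptors was therefore tested as their ratio within each mouse. This ratio uses the same Esrrb counts as the test of that gene, so it is no independent result. Esrrb had 0.405 ± 0.144 counts for each Esrrg count without IMC and 0.691 ± 0.0830 with it, and the log2 ratios differed by 0.83 (p = 0.00433, two-sided exact permutation test, not adjusted for the 8 ratios computed). Single mice ranged from 0.270 to 0.621 in the Ade group and from 0.592 to 0.827 in the Ade + IMC group, so that the ranges just overlapped. The range of the Con mice, 0.360 to 0.752, overlapped each of them. The gene patterns most like that of Esrrb over the 17 mice were those of Slc4a1, the anion exchanger of intercalated cells (Pearson r = 0.96), and Slc12a1 (r = 0.96). Between the Ade and Ade + IMC groups their log2 fold changes were 0.76 ± 0.25 and 0.60 ± 0.23 (adjusted p = 0.711 for both, limma). As both genes were picked for their likeness to Esrrb in the same mice, these values are no independent result.

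**Figure D3:**
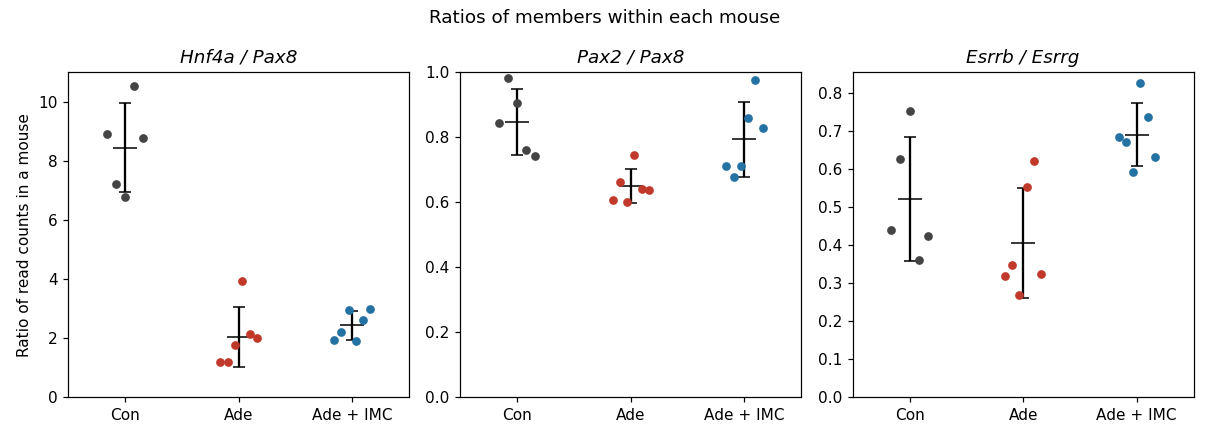
Ratio of the read counts of 2 members in each mouse (vertical axis, from 0) for Hnf4a to Pax8, Pax2 to Pax8 and Esrrb to Esrrg in the 3 groups. Points are mice and bars are mean ± SD, and the ratio of Esrrb to Esrrg is 0.270 to 0.621 in Ade mice and 0.592 to 0.827 with IMC.

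Like Esrrb, the other members did not pass the test between the adenine-fed groups, and their intervals do not show that they were alike. Hnf4a ranged from 202 to 478 CPM without IMC and from 223 to 451 CPM with it (0.21 ± 0.21, 95% interval -0.23 to 0.66, adjusted p = 0.857, limma). Sox4 ranged from 52.6 to 75.8 CPM (median 66.2) in the Ade + IMC mice, with 1 mouse below all Ade mice (-0.27 ± 0.16, 95% interval -0.62 to 0.08, adjusted p = 0.773, limma). Tfap2b ranged from 109 to 173 CPM (median 135), with 4 of 6 mice above all Ade mice (0.20 ± 0.11, 95% interval -0.05 to 0.44, adjusted p = 0.756, limma). For Pax8, Pax2 and Maf the log2 fold changes were -0.14 ± 0.11, 0.14 ± 0.11 and 0.03 ± 0.12. Their 95% intervals were -0.38 to 0.09, -0.10 to 0.37 and -0.22 to 0.28. The ratio of Pax2 to Pax8 counts was 0.793 ± 0.114 in the Ade + IMC mice, higher than in the Ade mice (log2 difference 0.28, p = 0.0130, exact permutation test, not adjusted for the 8 ratios). Of 12 genes of injured tubule, 4 were lower at an unadjusted p-value below 0.05, Sox9, Vcam1, Spp1 and Clu, and 0 were called, where 3.35% of all genes were lower at that limit.

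Mice fed adenine with IMC were also set against the Con mice, whose counts are in another table, using the reads recovered from the normalized counts. Of the 8 genes, 4 were called lower (Hnf4a, Esrrg, Esrrb and Maf) and 2 higher (Sox4 and Pax8) with edgeR, against 32.3% and 30.9% of 14578 genes. As this comparison uses the same Con mice as that of the Ade group, it is no independent repeat. Hnf4a was 2.95-fold lower (-1.56 ± 0.16, adjusted p = 4.46e-06), Esrrg 2.06-fold lower (-1.04 ± 0.18, adjusted p = 0.000325) and Maf 1.49-fold lower (-0.58 ± 0.14, adjusted p = 0.00283). Sox4 was 3.09-fold higher (1.63 ± 0.11, adjusted p = 1.85e-07). The Ade + IMC mice did not overlap the Con mice for 3 of the 8 genes, Hnf4a, Esrrg and Sox4, and for 37.0% of all genes tested. Pax8 was 1.16-fold higher (0.21 ± 0.08, adjusted p = 0.0359).

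Esrrb remained lower than in the Con group, by 0.60 ± 0.15 on the log2 scale (adjusted p = 0.00450), with 3 of 6 mice below all Con mice. Within the digits of the mouse number its permutation p was 0.0833, and the log2 differences were -1.07, -0.54 and 0.19 for digits 2, 3 and 4, where the last rests on 1 Con mouse. Tfap2b did not pass the test against the Con group (-0.12 ± 0.12, adjusted p = 0.412), nor did Pax2 (0.11 ± 0.12, adjusted p = 0.476).

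**Figure D4:**
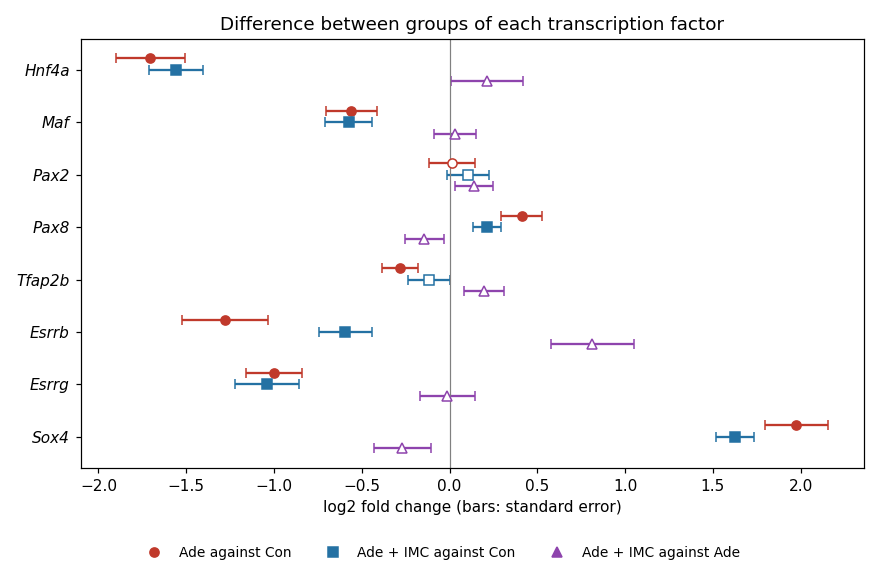
Log2 fold change of each transcription factor (horizontal axis, bars are standard errors) in Ade against Con (circles), Ade + IMC against Con (squares) and Ade + IMC against Ade (triangles). Filled symbols passed an adjusted p-value below 0.1, and the only triangle more than 0.3 from 0 is that of Esrrb at 0.81, which is open.

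Across the 17 mice, the Pearson correlation of log2 CPM was 0.91 between Hnf4a and Esrrg and -0.93 between Hnf4a and Sox4, values that include the difference between the groups. With each group centred on its mean, the values were 0.68 and -0.42. Between the 5 genes that were lower in the Ade group, the values within groups ran from 0.33 (Maf and Esrrb) to 0.86 (Tfap2b and Esrrg), with 0.53 for Esrrb and Esrrg. The highest within groups among the 8 genes was that of Tfap2b and Esrrg, followed by that of Pax8 and Sox4 (0.83), and Pax2 and Pax8 had 0.68. These values share libraries and their scaling and are given as a description over 17 mice.

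Among 14610 genes, those with patterns most like Hnf4a were Abcg2, the urate and xenobiotic exporter (r = 0.996), and Kcnj15, a potassium channel (r = 0.996). Sox4 was most like Elf3, an epithelial ETS factor (0.99), and Pea15a (0.99). Esrrg was most like Phldb2 (0.98) and Nectin3, a cell adhesion protein (0.98), and Pax8 most like Adgrg1 (0.96) and Il17rb (0.94). Maf was nearest to Phospho2 (0.95) and Gnpda1 (0.92), Pax2 to Epn3 (0.91) and Ros1 (0.86), and Tfap2b to Abi2 (0.90) and Gsr, glutathione reductase (0.86).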

How the data were processed

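Kidney RNA-seq data of 17 mice were analysed. The authors deposited 2 tables, one with raw counts of Con and Ade mice and one with a normalized signal (counts over DESeq2 size factors) of both adenine-fed groups. The paper's methods name 50-base single-end reads, mm10 and the STAR aligner, whereas the submitters' processing notes list Trimmomatic 0.39, Bowtie2 2.2.5 and HTSeq 0.9.1, so the aligner is uncertain. Neither annotation release nor strand setting is given in the sources used here. A table of the authors' own fold changes and p-values for IMC was used only for its gene names. All normalized values (100%, tolerance 1e-06 reads) were whole multiples of 1 read, and 0 of the reads recovered for the Ade mice differed from the raw counts.

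Counts were tested with edgeR 4.0.16 (quasi-likelihood, TMM, filterByExpr) and normalized values with limma 3.58.1 (trend, log2 with a pseudocount of 1, mean of at least 10), in R 4.3.3, at an adjusted p-value below 0.1 over all genes tested. Log2 CPM used a prior count of 2. For single values two-sided exact permutation tests over mice were run. DESeq2 1.42.0, other scalings, filters, pseudocounts, a block for the mouse number's first digit, a fit over 17 mice and leaving out each mouse were alternatives. The edgeR fit with the block and the block fits without 1 mouse were chosen after seeing the data. The procedures were tested on simulated data.

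The members and gene lists were chosen with earlier results of these data known. Genes named in the text were drawn from the 8 members, the 2 genes most correlated with each, the 2 called genes with the largest rise and fall in Ade against Con of a list, and Havcr1. Other list members that are named (Tfap2a, Sox11, Sox12, Nrip1, Nr0b2, Sox9, Vcam1, Spp1 and Clu) were chosen after their values were seen. Results for some genes of the lists are not reported here. Positions refer to the GRCm38 build.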

Additional observations from a re-analysis of the deposited data

Results flagged for a closer look

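Of 48 sets of values examined (each member's CPM, or a ratio, in 1 group), 1 had a sample far from the others, where chance gives about 1 in 20. The Ade mouse numbered 407 had 3.95 counts of Hnf4a for each count of Pax8, against 1.18 to 2.15 in the other 5 Ade mice, and its Hnf4a level of 478 CPM was the highest of the group. It still lay below the 6.77 to 10.5 of the Con mice.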

How the results depend on the processing

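The members called in Ade against Con (5 lower, 2 higher) and in Ade + IMC against Con (4 lower, 2 higher) kept these counts under every alternative run, each mouse left out in turn included. No alternative used total counts without further scaling. Over 536 member values under alternatives, 501 kept their direction and their side of the threshold, 29 changed sign and 6 (all Esrrb in Ade + IMC against Ade) came past the threshold.

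Every change of sign was in a value close to 0. For Pax2 in Ade against Con the log2 fold change was -0.017 with DESeq2, -0.011 with its size factors in edgeR and -0.0086 without a filter, and from -0.058 to 0.081 with 1 mouse left out. For Esrrg in Ade + IMC against Ade it was 0.00066 with DESeq2, 0.0069 with edgeR over the 17 mice, 0.045 with the first digit as a block in limma and 0.039 in edgeR, and from -0.088 to 0.072 with 1 mouse left out. With the block and 1 mouse left out, it changed sign at 0.119, 0.032, 0.060 and 0.068 without Ade mice 207, 208, 407 and 409, and at 0.074, 0.077, 0.102 and 0.073 without Ade + IMC mice 211, 212, 311 and 410. For Maf leaving out 1 mouse gave -0.048 to 0.084.

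The count of genes called in Ade + IMC against Ade, 0 with limma, was 37 with DESeq2, 133 with the block in limma and 104 with the block in edgeR. With the block and 1 mouse left out it ranged from 0 to 654, and was 654, 565, 289 and 142 without Ade mouse 407 and Ade + IMC mice 311, 310 and 410, and 10, 4, 2 and 1 without Ade mice 408 and 409, Ade + IMC mouse 212 and Ade mouse 208. The block brought the count of members called higher to 1 (Esrrb), and leaving out 1 mouse as well gave 0 or 1. The cause was not tested. No paired analysis was possible because replicates were numbered in accession order, which pairs no mice. End digits of the mouse codes recur between groups, but no label says that they or the first digit mark a pair. Con mice number 5, and 1 of them has first digit 4.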

Other observations

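Some lists were examined only for the setting of the members. In the Ade group against the Con group, all 8 T cell markers and all 6 B cell and plasma cell markers were called higher (median log2 fold changes 3.61 and 4.22), led by Cd2 (4.41 ± 0.48, adjusted p = 4.73e-06, edgeR) and Jchain (6.38 ± 0.88, adjusted p = 3.60e-05). Of 7 tested collecting duct principal cell genes 6 were called lower, with Aqp4, a water channel, at -4.01 ± 0.35 (adjusted p = 7.36e-07), as were 6 of 7 intercalated cell genes, with Slc4a1 at -1.62 ± 0.25 (adjusted p = 8.59e-05). Of 6 endothelial markers 4 were called lower, among them Kdr (-0.99 ± 0.20, adjusted p = 0.000785), and of 5 podocyte markers 0 were called lower and 1, Synpo, higher (0.34 ± 0.16, adjusted p = 0.0852). Synpo had the highest log2 fold change of these 5 podocyte markers, whose median was -0.43.

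Aqp2, the vasopressin-regulated water channel, had 56.2 to 105 CPM without IMC and 104 to 218 CPM with it (0.75 ± 0.18, adjusted p = 0.601, limma), and Aqp4 differed by 1.31 ± 0.40 (adjusted p = 0.711, limma). Pax5, the B cell relative of Pax2 and Pax8, had 0 to 2 counts in the Con mice and 3 to 36 in the Ade mice.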
